A study of Thermothelomyces thermophilus with 4 samples.

Results

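The genes described here are 79 gene models of the thermophilic fungus Myceliophthora thermophila (Thermothelomyces thermophilus) whose transcripts were higher on both cereal straws, oat and triticale, than on both other straws, canola and flax. The fungus had been grown from spores at 45 °C in a defined medium with 1 of the 4 straws as carbon source, and polyadenylated RNA was taken from the mycelium. Oat, triticale and flax cultures were taken at 24 h and the canola culture at 30 h, and for canola the straw and the time in culture therefore cannot be told apart. Each straw had 1 library and no replicate, and the strain is not given in the sources used here. Values are FPKM (reads per kilobase of gene length, scaled to the reads assigned to genes in the library), and bracketed ranges are 95% intervals of the recovered reads (exact Poisson for levels, Clopper-Pearson for ratios between libraries), which cover counting error only.

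The members were selected on the FPKM values of these same libraries. A gene qualified when its mean over the 4 straws was at least 1 FPKM and when its lower cereal value was at least 2-fold above its higher value on canola or flax, with 1 added to each value. This ratio is called the gap. Of 9110 gene models, 8230 had the required mean, and 90 of these (1.09%) passed the gap. The selection also named 19 models to be left out, of which 11 passed the gap and 8 did not, so that 79 members remained. The separation of cereal from dicot straws is therefore what chose the members and is given as a description. When 1 library was left out of the gap, the other straw of its class stood alone and genes could only be added. The number of members was then 107 without oat, 129 without triticale, 120 without flax and 263 without canola.

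Filamentous fungi that live on plant litter secrete mixtures of enzymes against cellulose, hemicelluloses and pectin, and they adjust transcription of these genes to the sugars released from the substrate. The walls of cereal straws are rich in arabinoxylan that carries ferulic acid, while dicot walls such as those of canola and flax hold more pectin and a xylan of another kind. Xylose, arabinose and cellobiose are known inducers of such enzyme genes in Aspergillus, Trichoderma or Neurospora species. All 79 members matched a RefSeq locus tag, but none has a gene symbol there and the sources used here give no product for them. They are described by locus tag, and no role is assigned.

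The members spanned more than 3 orders of magnitude in level. Their median was 65.8 FPKM on oat and 48.6 FPKM on triticale, against 13.7 FPKM on canola and 8.23 FPKM on flax. The medians of all 8230 genes were 21.5, 16.6, 22.2 and 21.8 FPKM in the same order. The typical member was thus above the middle of the transcriptome on cereal straw and below it on canola and flax straw. Below the median gene of the library lay 17 members on oat and 17 on triticale, but 47 on canola and 53 on flax. At least 1000 FPKM was reached by 8 members on oat, 5 on triticale and 0 on canola and flax. This count was not made for all tested genes, and the selection itself holds canola and flax below the cereal straws. In a bulk culture, fewer hyphae that express a gene and less transcript per hypha cannot be told apart.

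**Figure D1:**
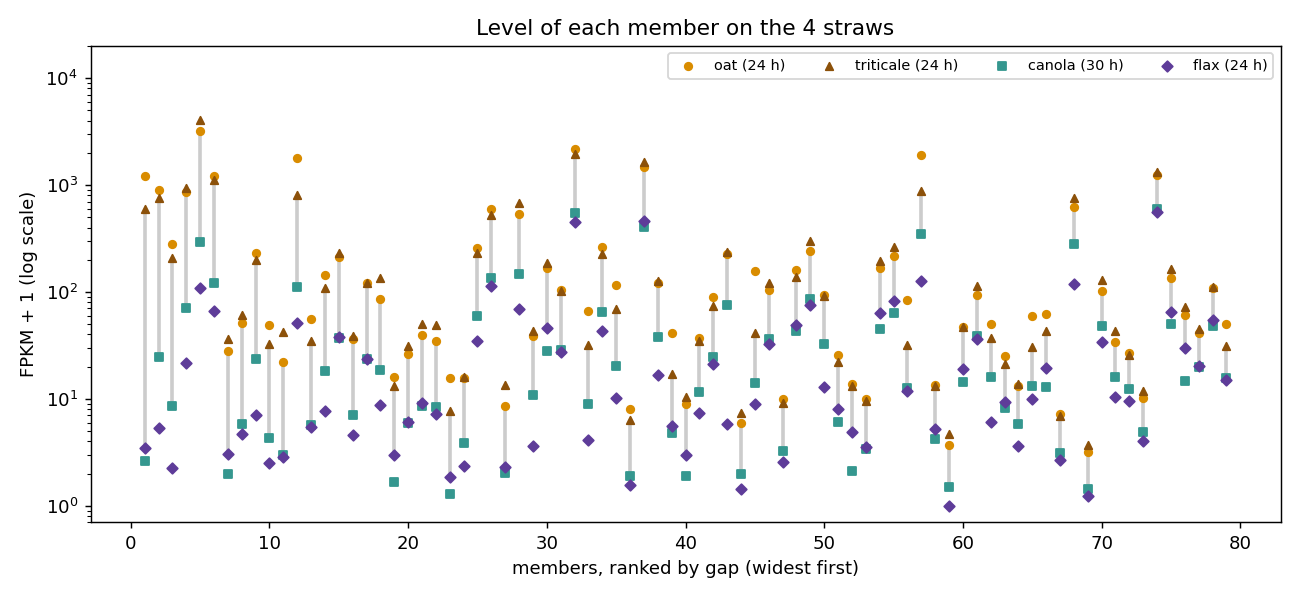
FPKM + 1 (log axis) of each of the 79 members on the 4 straws, 1 library each, ranked from the widest gap on the left to the narrowest on the right, with the gap as a grey line. Oat and triticale lie close together for most members, the gap narrows from 171-fold to 2.01-fold, and the widest gaps lie at high cereal levels. Among the narrower gaps both high and low levels occur.

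Most gaps were moderate. A gap of 10-fold or more was found for 5 members, 12 lay between 5-fold and 10-fold, 7 between 4-fold and 5-fold, 19 between 3-fold and 4-fold, 15 between 2.5-fold and 3-fold, and 21 between 2-fold and 2.5-fold. The median gap was 3.04-fold. Measured between single straws on FPKM + 1, the median member was 5.04-fold higher on oat than on flax and 4.55-fold higher on triticale than on flax, all 3 cultures being of 24 h. Against the 30 h canola culture the medians were 4.11-fold for oat and 3.58-fold for triticale. Over all 8230 genes the corresponding medians were 0.971, 0.874, 1.002 and 0.865. By the selection each of these ratios is at least 2-fold for every member, so the contrast with all genes was set in advance.

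The widest gap belonged to MYCTH_39279, at 1210 FPKM with oat, 596 with triticale, 1.61 with canola and 2.49 with flax. It rested on 13 reads in the canola and 20 in the flax library, against 8938 and 3911 on oat and triticale, so few of its transcripts were seen off the cereal straws. The 2 cereal values of this gene also differed, by 2.03-fold (1.96 to 2.11). MYCTH_54058 had 888 FPKM with oat and 749 with triticale, against 23.8 (21.0 to 26.8) with canola and 4.34 (3.19 to 5.77) with flax, a gap of 30.3-fold. MYCTH_43727 had 282 FPKM with oat and 206 with triticale, against 7.49 (5.72 to 9.64) with canola and 1.25 (0.600 to 2.30) with flax, a gap of 24.3-fold. In both genes canola was well above flax, and the cereal values were far above both.

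MYCTH_2066457 was at 865 FPKM with oat, 934 with triticale, 69.4 with canola and 20.4 with flax. MYCTH_2313146 was at 1205 FPKM with oat, 1116 with triticale, 119 with canola and 65.2 with flax. These 2 genes combined a gap of 12.3-fold and 9.27-fold with nearly equal levels on the 2 cereal straws. Wide gaps also occurred at more moderate cereal levels. MYCTH_2299964 had 27.1 FPKM with oat and 35.3 with triticale, against 0.959 with canola and 2.03 with flax, and MYCTH_2305759 had 49.8 and 60.3 FPKM against 4.82 and 3.72. Their gaps were 9.27-fold and 8.74-fold, and in both the canola to flax difference lay within counting error.

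The most abundant member was MYCTH_109444, with 3178 FPKM (3143 to 3212) on oat and 4043 FPKM (4002 to 4084) on triticale. It had 292 FPKM on canola and 109 FPKM on flax, so that it remained a moderately high transcript off the cereal straws and its gap was 10.9-fold. In the profile over the 4 straws the genes most like it were MYCTH_2058793, MYCTH_2302583 and MYCTH_2300572, with Pearson's r of log2(FPKM + 1) between 0.99931 and 0.99999 over 4 points. They are not members. Their gaps were 1.40-fold, 1.20-fold and 1.27-fold, so the order and spacing of the straws were alike but the amplitude was not.

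Further abundant members had narrower gaps. MYCTH_110651 was at 2193 FPKM with oat, 1967 with triticale, 548 with canola and 450 with flax. MYCTH_114107 was at 1485, 1638, 402 and 455 FPKM, and MYCTH_2296005 at 1237, 1336, 599 and 559 FPKM, in the same order of straws. These 3 genes stayed among the abundant transcripts on every straw, and their gaps were 3.58-fold, 3.26-fold and 2.07-fold. MYCTH_98003 was at 1926 FPKM with oat, 875 with triticale, 349 with canola and 126 with flax, and MYCTH_100068 at 1791, 802, 109 and 50.02 FPKM. Both had their levels in the order oat, triticale, canola, flax, with more than 2-fold between neighbours in that order. Across members, the 32 with at least 100 FPKM on both cereal straws had a median gap of 3.58-fold and the other 47 a median gap of 2.93-fold. The addition of 1 to each value narrows the gap of low genes.

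The 79 members took 3.81% of the oat reads and 3.62% of the triticale reads assigned to genes, against 0.837% of the canola and 0.660% of the flax reads. These shares come from totals of 7308467, 6495371, 7977329 and 7955444 reads. A few members made up a large part of them: the 5 members with the most reads in a library held 49.7% of member reads with oat, 55.9% with triticale, 61.4% with canola and 68.1% with flax. MYCTH_109444 alone took 0.448% of oat and 0.570% of triticale reads, and 0.0411% of canola and 0.0153% of flax reads.

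A large part of the reads came from MYCTH_2313501, a gene model of 41976 bases that is the longest in the table, the next tested gene having 28440 bases. Its level was 104 FPKM (103 to 105) on oat, 102 (100 to 103) on triticale, 27.6 (27.1 to 28.2) on canola and 26.5 (26.0 to 27.1) on flax. The values formed a high pair and a low pair, with an oat to triticale ratio of 1.02 and a canola to flax ratio of 1.04, and the gap was 3.59-fold. Because of its length it took 0.436% of oat, 0.427% of triticale, 0.116% of canola and 0.111% of flax reads, although its level per kilobase was moderate. Its span overlaps that of a neighbouring gene in RefSeq, so part of these reads may belong to the neighbour. The same holds for MYCTH_2082283 and MYCTH_111741.

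**Figure D2:**
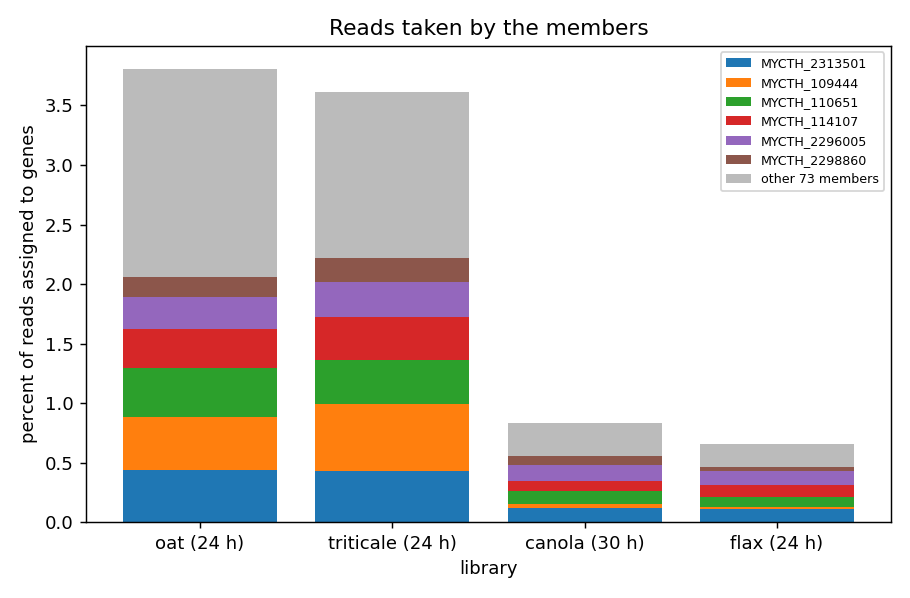
Percent of reads assigned to genes that fell on members in each of the 4 libraries, stacked by the 6 members with the largest summed share and all other members. The bars reach 3.81% on oat and 3.62% on triticale but 0.837% on canola and 0.660% on flax, and MYCTH_109444 narrows the most among the 6 from the cereal to the dicot straws.

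Apart from MYCTH_2313501 the members were short. Their median length was 1390 bases, against 1797 bases for all tested genes, 25 of 79 exceeded that median, and the second longest member had 2664 bases. The median was 1258 bases for the 32 abundant members and 1700 for the others. Lengths of all tested genes were not split by level, so this difference is not shown to be particular to the members. With each library's trend with length removed, 92 genes qualified, among them 78 of the 79 members.

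Oat and triticale were then compared within the set, a contrast that the selection used only through the lower of the 2 values. The members divided evenly, with 39 higher on oat and 40 higher on triticale, whereas 60.9% of all tested genes were higher on oat. The median log2 ratio of oat to triticale was 0.00 for the members and 0.19 for all tested genes. A gene that is low on triticale fails the selection even when it is high on oat. Since most tested genes were lower on triticale, these contrasts with all tested genes are partly set by the selection. The level on the 2 straws lay within 1.5-fold for 63 of 79 members (79.7%), against 66.0% of all tested genes, and a selection on the lower cereal value favours close values. At 2-fold, 8 members (10.1%) were higher on oat, against 14.2% of all tested genes, and 0 were higher on triticale, against 0.352%. With the medians of the libraries centred, which raised triticale by 0.36 on the log2 scale relative to oat, these counts were 2 and 3. They were 6 and 0 with upper-quartile scaling and 4 and 0 with the length trend removed. The size of these counts thus depends on the scaling, and their balance between oat and triticale changed under median centring only. The shares over all tested genes were computed for the values as deposited only. The rescaled counts therefore do not set the members apart from other genes. No test was possible with 1 library per straw.

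The members that leaned towards oat were led by MYCTH_2299856, at 154 FPKM with oat, 40.2 with triticale, 13.1 with canola and 7.92 with flax. Its oat to triticale ratio was 3.83 (95% Clopper-Pearson interval 3.47 to 4.25), the widest in the set. MYCTH_42071 followed at 82.4 FPKM with oat and 30.9 with triticale, a ratio of 2.67 (2.41 to 2.96), and 11.7 and 10.8 FPKM on canola and flax. MYCTH_101354 had 40.0 FPKM with oat and 16.2 with triticale, a ratio of 2.48 (2.11 to 2.91), with 3.83 on canola and 4.53 on flax. For these 3 genes triticale lay between oat and the dicot straws. It was 3.07-fold, 2.64-fold and 3.57-fold above the higher of canola and flax, in the order named. In MYCTH_101354 triticale was thus nearer to oat than to the dicot straws on a ratio scale.

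The strongest lean towards triticale was smaller. MYCTH_49700 had 41.1 FPKM on triticale and 21.3 on oat, a ratio of 1.93 (1.56 to 2.40), with 1.98 on canola and 1.84 on flax. MYCTH_2128529 had 12.6 FPKM on triticale and 7.50 on oat, a ratio of 1.68 (1.14 to 2.48). MYCTH_2307822 had 133 FPKM on triticale and 84.1 on oat, a ratio of 1.58 (1.41 to 1.77). All 3 intervals lie above 1, and in the values as deposited none of the ratios reaches 2-fold.

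Canola and flax were compared in the same way. The selection limits the higher of these values and leaves the lower one free. More members were higher on canola (52) than on flax (27), whereas 48.2% of all tested genes were higher on canola. The median log2 ratio of canola to flax was 0.24 for the members and -0.02 for all tested genes. At 2-fold, 17 members (21.5%) were higher on canola, against 7.91% of all tested genes, and 2 (2.53%) were higher on flax, against 3.48%. Of these 17 members, 12 had at least 100 FPKM on both cereal straws, a level that 32 of all members reached. Low genes reach 2-fold less easily on FPKM + 1, and this split by level was not made for all tested genes. The canola to flax interval lay above 1 for 33 members, below 1 for 11 and included 1 for 35. Whether an interval excludes 1 depends on the number of reads, and no such counts were made for all tested genes. These interval counts therefore describe the members only and do not set them apart from other genes. With 10 added to each value in place of 1, the 17 and 2 became 8 and 0, and the shares over all tested genes were not computed on that scale. Flax was the lowest straw for 52 members and canola for 27. These values also compare a 30 h with a 24 h culture.

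The widest canola to flax difference was that of MYCTH_52904, with 73.7 FPKM (68.3 to 79.5) on canola and 4.87 (3.55 to 6.52) on flax, a ratio of 15.1 (11.2 to 20.9). On the cereal straws it had 225 FPKM with oat and 235 with triticale. Canola lay 3.02-fold below the lower cereal straw for this gene and was thus nearer to it than to flax. Next on the scale of FPKM + 1 were MYCTH_54058 and MYCTH_43727, described for their wide gaps, with canola to flax ratios of FPKM of 5.47 (3.999 to 7.64) and 5.98 (3.04 to 13.1). In 4 members, MYCTH_52904, MYCTH_98003, MYCTH_10713 and MYCTH_2298860, the step from flax to canola was larger than the step from canola to the lower cereal straw on the scale of log2(FPKM + 1). These 4 were singled out after their values were seen.

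In the other direction MYCTH_2068307 had 3.86 FPKM on flax and 1.12 on canola, a ratio of 3.44 (2.09 to 5.89), and 12.8 and 12.2 FPKM on oat and triticale. MYCTH_91276 had 29.1 FPKM on flax and 13.7 on canola, a ratio of 2.12 (1.61 to 2.82), with 60.2 on oat and 71.8 on triticale. MYCTH_2310276 had 2.01 FPKM on flax and 0.667 on canola, from 9 and 3 reads, and that ratio of 3.01 (0.751 to 17.3) was within counting error. Its cereal values were 15.04 FPKM on oat and 12.3 FPKM on triticale.

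**Figure D3:**
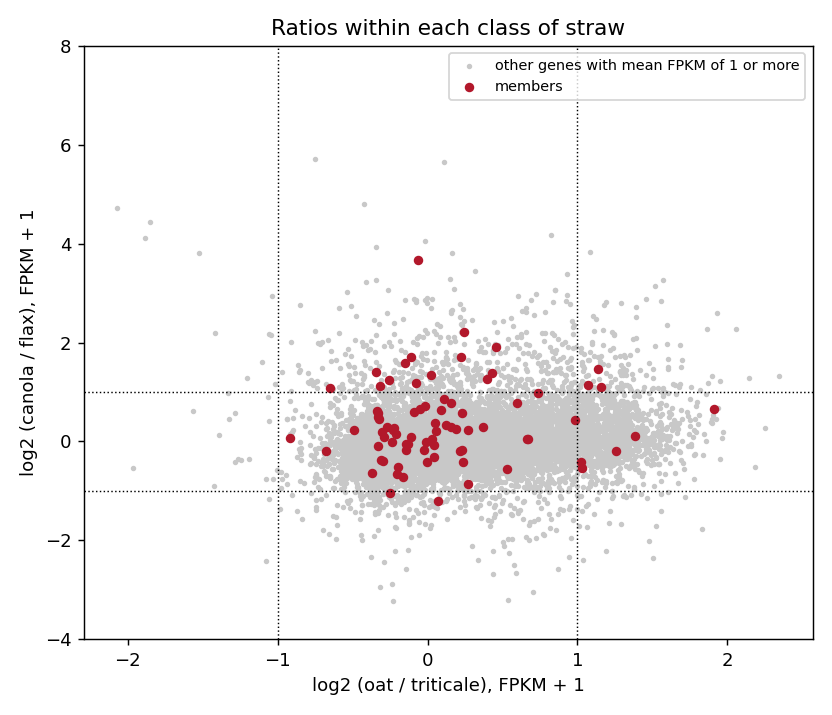
Log2 ratio of oat to triticale (x axis) against log2 ratio of canola to flax (y axis), both on FPKM + 1, for the 79 members (red) and all other genes with a mean of at least 1 FPKM (grey), with dotted lines at 2-fold. The members centre on 0.00 on the x axis and reach from -1.19 to 3.67 on the y axis, with 17 above the upper and 2 below the lower line.

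Taking both classes together, 37 members lay within 1.5-fold between oat and triticale and also within 1.5-fold between canola and flax. This share, 46.8%, was near the 48.7% of all tested genes. Between canola and flax alone, 46 members (58.2%) lay within 1.5-fold, against 72.1% of all tested genes. The order oat, triticale, canola, flax was found in 28 members, triticale, oat, canola, flax in 24, triticale, oat, flax, canola in 16, and oat, triticale, flax, canola in 11. These are the 4 orders that the selection permits. Over all tested genes, which also take the other orders, their shares were 3.20%, 7.01%, 7.40% and 2.35%. These shares are therefore not on the same base as the member counts.

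Some members lie beside each other in RefSeq gene order (assembly ASM22609v1). Within 3 gene steps of another member were 11 of 79 members (13.9%), in 4 runs, while 4.16% of the 8131 other tested genes lay within 3 steps of a member. At 1 step these values were 7 members (8.86%) and 1.33%. Neighbouring genes are not independent, and no test was made of these shares.

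The longest run held 4 consecutive members, MYCTH_94532, MYCTH_2128529, MYCTH_51839 and MYCTH_2307822. The first had 88.7 FPKM with oat, 73.4 with triticale, 23.6 with canola and 20.0 with flax. The next 2 were low genes, at 7.50 and 4.89 FPKM on oat, 12.6 and 6.37 on triticale, 1.02 and 0.966 on canola, and 1.32 and 0.440 on flax. The last had 84.1 FPKM with oat, 133 with triticale, 17.7 with canola and 7.83 with flax. Levels thus differed more than 10-fold within the run. The gaps were 3.02-fold, 3.66-fold, 2.996-fold and 4.56-fold, each at least 2-fold by the selection and narrowed in the low genes by the added 1. Without it the ratios of the lower cereal to the higher dicot value were 3.1, 5.7, 5.1 and 4.8. Their intervals were wide for the 2 low genes, at 2.75 to 13.2 for MYCTH_2128529 and 2.605 to 10.8 for MYCTH_51839. The gene before the run, MYCTH_2128527, had a gap of 0.832 and the gene after it, MYCTH_52469, one of 0.937, so the lower cereal value was not above the higher dicot value on either side of the run. MYCTH_52469 was the more abundant, with 166 FPKM with oat, 260 with triticale, 178 with canola and 49.6 with flax.

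A second run held 3 consecutive members that ended in a gene of wide gap. MYCTH_10713 had 48.9 FPKM with oat, 36.1 with triticale, 14.8 with canola and 5.03 with flax. MYCTH_2309651 had 36.4, 34.0, 10.6 and 6.41 FPKM in the same order, and MYCTH_54058 had 888, 749, 23.8 and 4.34 FPKM. All 3 had the order oat, triticale, canola, flax, with gaps of 2.34-fold, 3.03-fold and 30.3-fold. The gene before the run, MYCTH_2309647, had a gap of 0.655. The gene after it, MYCTH_2120482, was low on all straws, with 1.25 FPKM with oat, 2.31 with triticale, 0.522 with canola and 0.733 with flax. Its cereal values lay above the others, and its gap of 1.30-fold was under the limit.

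In the other 2 runs the members were not adjacent. MYCTH_58125, at 12.45 FPKM with oat, 12.04 with triticale, 3.20 with canola and 4.21 with flax, and MYCTH_2311323, at 7.10, 5.27, 0.900 and 0.555 FPKM, flank MYCTH_85556. The gene before them, MYCTH_72822, had a gap of 1.42-fold. MYCTH_85556 is 1 of the 11 that passed the gap but were left out, and had 3481 and 3527 FPKM on the cereal straws against 171 and 212 FPKM on canola and flax. MYCTH_110651 and MYCTH_99786 are separated by 2 genes with gaps of 0.413 and 0.879. MYCTH_99786 had 48.3 FPKM with oat, 31.5 with triticale, 3.34 with canola and 1.52 with flax, far below the level of MYCTH_110651 but with a wider gap of 7.49-fold.

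**Figure D4:**
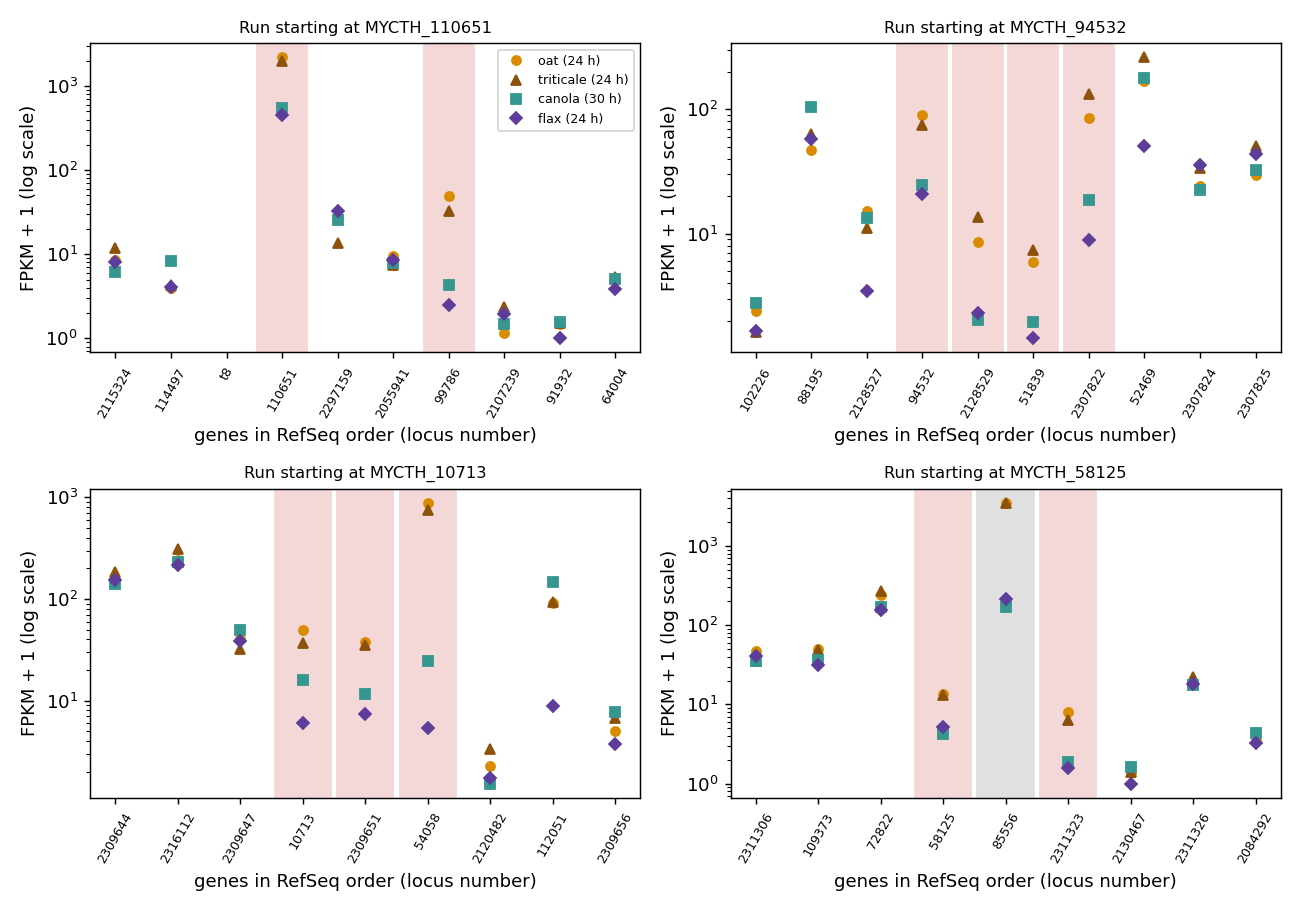
FPKM + 1 (log axis) on the 4 straws for the 4 runs of neighbouring members and 3 genes on each side, in RefSeq gene order with locus numbers. Members are shaded red and MYCTH_85556, which passed the gap but was left out, grey. In the run from MYCTH_94532 to MYCTH_2307822 the cereal values lie above the dicot values in all 4 genes, with gaps of 2.996-fold to 4.56-fold, and the genes directly before and after it have gaps under 1; MYCTH_t8 is not in the table and has no points.

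At the lower end, 11 members had under 10 FPKM on a cereal straw. The shortest member, MYCTH_2130796 with 254 bases, had 2.69 FPKM with oat and 3.64 with triticale, from 5 and 6 reads. It had 0.494 FPKM on canola from 1 read and 0 reads on flax, where 3 reads would correspond to 1.48 FPKM. Its lower cereal to higher dicot ratio was 5.46 with an interval of 0.611 to 258, so that no difference was detectable at this depth.

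Just inside the limit of 2-fold were MYCTH_111741 (48.5 FPKM with oat, 30.3 with triticale, 14.6 with canola and 14.1 with flax), MYCTH_2303577 (108, 110, 47.2 and 53.1 FPKM) and MYCTH_2309692 (40.3, 44.3, 18.6 and 19.4 FPKM), with gaps of 2.01-fold, 2.02-fold and 2.02-fold. Just outside were MYCTH_2309574 (2.49, 5.60, 0.760 and 0 FPKM), MYCTH_57502 (125, 105, 53.0 and 48.4 FPKM) and MYCTH_58635 (21.9, 17.3, 8.37 and 2.10 FPKM), with gaps of 1.98-fold, 1.97-fold and 1.95-fold.

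The 44 members outside the rule for naming single genes had gaps from 2.05-fold to 8.50-fold and lengths from 558 to 2664 bases. Their levels ranged from 2.18 to 626 FPKM on oat (median 63.7) and from 2.72 to 749 FPKM on triticale (median 48.1). On canola they ranged from 0.287 to 280 FPKM (median 14.2) and on flax from 0.222 to 117 FPKM (median 9.06).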

How the data were processed

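The authors deposited 1 table of FPKM values with the length of each gene model. Not given in the sources used here are the aligner, the counter, the genome build and the annotation. FPKM multiplied by length was a whole multiple of its smallest value (100% of values within 0.001), from which reads and library totals were recovered. Fold rules use FPKM + 1. Poisson and Clopper-Pearson intervals (95%, SciPy 1.17.1) cover counting error only and leave out differences between cultures. They may be too narrow even for counting error, since PCR copies are not independent molecules. With 1 library per straw and members chosen by the contrast, no test was made. The cereal and dicot classes follow from the plants. Locus tags and gene order came from RefSeq (ASM22609v1; 9087 of 9110 models matched, 9075 with the same length). The build of the files is not named, so no coordinates are given. The kit is not described as stranded, so overlapping genes may share reads. Single genes were named as the 8 widest gaps, the 8 highest cereal levels, the 3 extremes of each within-class ratio, all in runs, the longest and shortest, and the 3 on each side of the limit. The members and rules were chosen with earlier results of these data known. The gap rule and the recovery of reads were run on simulated data. These had the same base level on every straw and were built from whole reads, so the run checks the calculation only. Protein and promoter features were not analysed here.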

Additional observations from a re-analysis of the deposited data

How the results depend on the processing

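The number of members, 79, was 80 to 101 with 0.1 added to each value, without the filter, with median centring, with upper-quartile scaling or with the length trend removed, and 63 with a filter at 10 FPKM. It was 47 with 10 added to each value and 24 at a 4-fold gap, and 107 to 263 with 1 library left out. Members 2-fold higher on oat than triticale numbered 5 with 10 added, 2 after median centring and 4 with the length trend removed, against 8, and those higher on triticale 3 after median centring, against 0. Members 2-fold higher on canola numbered 8 with 10 added, against 17, and those higher on flax 6 with 0.1 added, 0 with 10 added and 1 with the length trend removed, against 2. For all tested genes these 2-fold shares were not computed under the changed settings. The median log2 ratio of oat to triticale was -0.36 after median centring and -0.15 with the length trend removed, against 0.00, and that of canola to flax 0.09 with 10 added, against 0.24. Without the member with most reads in each library the members took 3.36% of oat, 3.05% of triticale, 0.705% of canola and 0.538% of flax reads. Members within 1 gene step of another numbered 7, against 11 at 3 steps. Of the 35 named members, 21 kept a 2-fold gap with 10 added, and all 35 did so under the other 4 scales run with all libraries. A second threshold for protein features, set out at the start, was not run. No paired analysis was possible because each straw had 1 library. Where these changes come from was not tested, except that adding 10 narrows ratios of low genes by construction. Depth limits the lowest members, of which 3 on canola and 2 on flax had 3 reads or fewer.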
